A study of Mus musculus with 4 samples.

Results

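The core autophagy machinery was taken as the rows of the gene count table whose symbols name the ATG genes (Atg followed by a digit), the ATG8 family (Map1lc3a, Map1lc3b and symbols that start with Gabarap), Ulk1 to Ulk3, or Wipi1 and Wipi2. Becn1, Pik3c3, Pik3r4, Rb1cc1, Uvrag, Ambra1, Wdr45, Tfeb, Tfe3, Lamp1, Lamp2 and Vmp1 were added by name. This gave 41 of 50600 genes. The filter on low counts kept 40 of them among 14861 genes tested, and the gene left out was Atg4a-ps, with 0 to 3 counts in each library. Among the 40, Atg9b had the fewest counts, at 22 and 19 in KO and 8 and 11 in WT.

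Autophagy encloses cytoplasm in a membrane, the autophagosome, and delivers it to the lysosome for digestion. The ULK kinase complex starts the process, the class III PI 3-kinase complex marks the membrane with the lipid PI3P, and PI3P-binding proteins recruit lipid transfer and conjugation factors. Ubiquitin-like proteins of the ATG8 family (LC3 and GABARAP) are then attached to the membrane lipid, where they bind cargo receptors and help fusion with the lysosome. In the intestine the pathway is known for its part in secretion by Paneth and goblet cells, and a coding variant of human ATG16L1 is linked to Crohn's disease.

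Primary epithelial cells from the colon of C57BL/6 mice were profiled by sequencing of poly(A)-selected RNA, with 2 libraries of the Mettl14 knockout (KO) and 2 of the wild type (WT). The product of Mettl14 is part of the enzyme complex that writes N6-methyladenosine (m6A) into mRNA, and the comparison asked which transcripts differ when the gene is deleted. What drives the deletion and when, how old the mice were and whether animals were pooled is not stated in the sources used here, and the sample titles carry a code that the labels do not explain and that was not used. Each group held 1 male and 1 female library by Xist and Y-linked counts (KO replicate 2 and WT replicate 1 were male), so no animal served for both libraries of its group.

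Library totals were 22730188 and 22780451 counts in KO and 22136440 and 24991060 in WT. Levels are given as CPM, the counts of a library scaled to 1000000 after trimmed mean of M-values (TMM) scaling. A count of 0 would allow a level of up to 3 counts, or 0.1445 CPM in the smallest library, for counting error only. Mettl14 was at 3.99 and 3.94 CPM in KO, against 11.7 and 8.67 CPM in WT (log2 fold change -1.36, edgeR adjusted p = 0.0504), just short of a call. Defining epithelial markers were abundant in every library, and none of the 10 was at 0. Their summed level was lower in KO, at 7194 and 6509 CPM, against 7700 and 9601 CPM in WT. Macrophage markers were higher, at 129 and 123 CPM in KO against 47.2 and 62.0 CPM in WT, with Itgam, Cx3cr1 and C1qa called higher among the 9. Neutrophil markers summed to 138 and 97.2 CPM in KO and 42.1 and 148 CPM in WT. Most of that sum was Ly6g, at 90.1 and 87.0 CPM in KO and 38.2 and 129 CPM in WT. S100a8, S100a9, Cxcr2 and Csf3r were highest in KO replicate 1, and Retnlg in KO replicate 2. T cell markers summed to 55.8 and 45.05 CPM in KO and 40.7 and 41.7 CPM in WT. B and plasma cell markers summed to 29.1 and 17.1 CPM in KO and 9.54 and 31.2 CPM in WT. Smooth muscle markers summed to 11.6 and 24.7 CPM in KO against 7.08 and 9.60 CPM in WT. Endothelial markers summed to 10.4 and 7.72 CPM in KO against 4.96 and 7.20 CPM in WT. Both KO libraries were above both WT libraries in all 4 smooth muscle and both endothelial markers tested, of 5 listed in each. The same held for 8 of 9 macrophage, 2 of 7 T cell, 2 of 6 fibroblast and 1 of 6 B and plasma cell markers. It held for none of the neutrophil or red blood cell markers, and for 31.1% of all genes. Some of these markers were scarce, with Des at 3 to 30 counts and Cdh5 at 4 to 13. The part of these cells in the results was not tested. None of the markers in the other lists was at 0 in all libraries. KO replicate 2 stood apart in RNA of other cells. Its 6 fibroblast markers summed to 565 CPM, against 52.6 to 75.9 CPM in the other libraries, and its 5 red blood cell markers summed to 6681 CPM, against 1353 to 2736 CPM.

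Transcripts of the core autophagy machinery were mostly lower in KO than in WT colonic epithelium, with a median log2 fold change of -0.80 in the ATG8 family. Atg16l2, Map1lc3a, Ulk3, Gabarap and Gabarapl2 were called lower, and no member was called higher. The edgeR adjusted p of these 5 ran from 0.0434, the smallest over all genes tested, to 0.0469. Rb1cc1, Atg4d, Gabarapl1 and Atg3 lay just outside the threshold of 0.05, at 0.05005 to 0.0537. Of the 40 members tested, 5 (12.5%) were called lower and 0 higher by edgeR's quasi-likelihood test at an adjusted p under 0.05, beside 1.90% of all genes called lower and 1.72% called higher (3.61% in either direction). At an unadjusted p under 0.05, 20 members (50%) were lower and 0 higher, beside 15.7% and 14.8% of all genes (30.5% in either direction). In 27 members both KO libraries were below both WT libraries, and in 5 both were above, beside 32.2% and 31.1% of all genes. The log2 fold change (KO over WT) was below 0 in 30 members, or 75%, and above 0 in 10, beside 51.0% and 49.0% of all genes. Its median was -0.32 over the members and -0.01 over all genes tested, and the members' quartiles were -0.58 and -0.02.

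In bulk RNA, fewer cells of a type and less RNA per cell cannot be told apart. The epithelial markers were mostly lower too, with 7 of 10 below 0 (beside 51.0% of all genes) and a median log2 fold change of -0.43. None was called, and Cdx1 (0.36), Cdx2 (0.33) and Cdh1 (0.15) lay above 0. Krt8 was the largest part of their sum, at a mean of 2101.5 of 6851 CPM in KO and 2814.4 of 8651 CPM in WT. The autophagy genes were also expressed relative to the summed epithelial markers of each library, a scaling chosen after the data were seen. The members' median difference was then 0.02, with 20 of 40 below 0, while that of all genes was 0.33. On this scale both KO libraries were below both WT libraries in 12 members and above in 13, beside 8.56% and 49.7% of all genes. The 12 were all 5 ATG8 genes, Atg16l2, Atg2a, Atg3, Pik3c3, Rb1cc1, Ulk3 and Wdr45. Such a scaling shifts every gene of a library alike. The part of cell composition in the lower levels was not tested. Without KO replicate 1 or without KO replicate 2, 0 genes were called over the whole table, and 11 and 10 members were lower at an unadjusted edgeR p under 0.05, beside 6.61% and 6.37% of all genes. Without WT replicate 1 there were 9 members called lower, beside 4.58% of all genes, and without WT replicate 2 there were 11, beside 6.5%. The members' median without KO replicate 2, the library rich in RNA of other cells, was -0.34, and 31 of 40 were below 0. With scaling by library size alone, Atg16l2 and Map1lc3a kept their calls and Gabarap, Gabarapl2 and Ulk3 lost them, and with the RLE factors of DESeq2 Ulk3 was just outside the threshold at nearly the same log2 fold change (-0.90, edgeR adjusted p = 0.0510). With DESeq2, 9 members were called lower and 0 higher, beside 6.56% and 6.41% of all genes, and with sex as a covariate in edgeR 9 were lower and 0 higher, beside 4.80% and 4.68%.

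**Figure D1:**
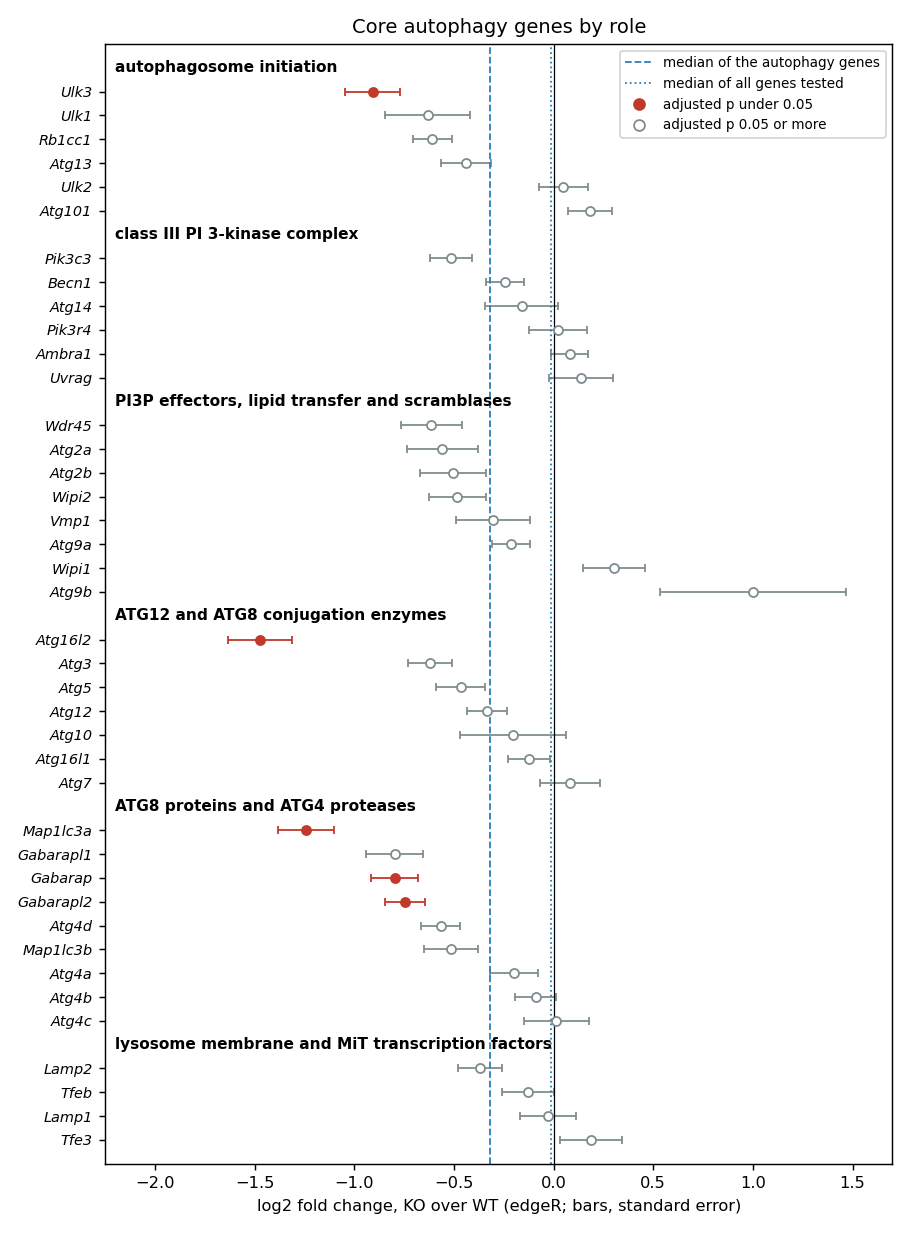
Log2 fold change of KO over WT for the 40 autophagy genes tested, grouped by role and ordered within each role, with standard errors as bars (edgeR, 2 libraries per group). Filled red points are the 5 genes with an adjusted p under 0.05, all left of 0, the dashed line is the members' median of -0.32, and the dotted line is the median of all genes, -0.01.

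The complex that holds Mettl14 methylates adenosines in a short consensus, of which GGACT is a common form in transcripts. No m6A was measured here, so matches describe the letters only. In the longest coding transcript per gene (GENCODE M21), 36 of 40 members (90.0%) held GGACT on the sense strand, beside 92.6% of 13532 genes with such a transcript. The median density was 1.2 sites per kb in the members and 1.05 per kb over all of these genes. Of the 5 called genes, Map1lc3a and Gabarap held none, as did Lamp1 and Lamp2, whereas Atg16l2 held 9, Ulk3 held 3 and Gabarapl2 held 2. Over the 40 members, the density and the log2 fold change had Pearson r = 0.21 and Spearman rho = 0.20, a description across genes that share the same 4 libraries. The sites of Atg12 (5) and Pik3c3 (1) were not placed relative to the stop codon. The following windows come from the other members and hold the site nearest to the stop codon. They cover the called genes with a site, Gabarapl1 as another ATG8 gene, and the 4 of these other members whose site lies nearest. Each is 25 bases of the GRCm38 transcript sequence, 5′ to 3′, with GGACT in capitals.
Atg16l2: tgtatgggttGGACTctgaagccag
Ulk3: ataccctcagGGACTacctacctga
Gabarapl2: aaatcatgttGGACTgagctaatct
Gabarapl1: gggagcacctGGACTtgggggtagg
Atg2a: aggaggcccaGGACTgactgcaggc
Atg2b: gccatggggaGGACTgatcccacag
Wipi2: atgattctccGGACTgactgatcct
Wdr45: gtgatgacgaGGACTtctaaagcat
In Atg2a and Atg2b the adenosine of the motif lay 4 bases before the last base of the stop codon, and in Wipi2 and Wdr45 it lay 8 and 7 bases before it. In Atg16l2 and Gabarapl1 it lay 28 and 31 bases after it, and in Ulk3 and Gabarapl2 it lay 408 and 438 bases after it.

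Of the 6 genes of the initiation step, 1 was called lower, beside 1.90% of all genes, and none was called higher, beside 1.72%. At an unadjusted edgeR p under 0.05, 4 were lower, beside 15.7% of all genes. Ulk3 (ENSMUSG00000032308, chromosome 9, 57589452 to 57596233, GRCm38) encodes a kinase related to ULK1 that also regulates Hedgehog signalling. It had 12.5 and 14.8 CPM in KO, against 25 and 26.3 CPM in WT. Both KO libraries lay well below both WT libraries. Ulk3 fell to 53.3% of WT, a log2 fold change of -0.91 (SE 0.14, edgeR adjusted p = 0.0469).

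Rb1cc1, which encodes the scaffold FIP200 of the ULK complex, had 42.8 and 41.6 CPM in KO, against 62.2 and 66.5 CPM in WT. Its groups did not overlap, and at a log2 fold change of -0.61 (SE 0.10) its edgeR adjusted p of 0.05005 lay just outside the threshold. Ulk1, the main kinase of the complex, was at 19.2 and 23.5 CPM in KO and at 27.4 and 38.7 CPM in WT. Its WT libraries were far apart, and its log2 fold change of -0.63 was not called (edgeR adjusted p = 0.137). Atg13, the regulatory subunit, was at 24.3 and 20.8 CPM in KO against 29.7 and 31.4 CPM in WT (-0.44). Atg101, which stabilises ATG13, was slightly higher in KO, at 26.1 and 28.1 CPM against 23.0 and 24.7 CPM in WT (0.18, not called). Ulk2, a close relative of Ulk1, overlapped between the groups, at 16.8 and 16.1 CPM in KO and 16.6 and 15.3 CPM in WT. Per length, Ulk3 made up 34.3% and 36.04% of the summed level of the ULK kinases in KO, against 46.2% and 42.6% in WT, and Ulk2 made up 32.1% and 27.3% in KO, against 21.3% and 17.2% in WT. With 2 libraries a group, an exact two-sided permutation test cannot give a p below 0.333, so these shares were not tested.

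None of the 6 genes of the class III PI 3-kinase complex was called, beside 3.61% of all genes called in either direction. They divided evenly, with 3 on each side of 0, beside 51.0% of all genes below 0. Pik3c3, the lipid kinase VPS34 itself, was the lowest, at 22.8 and 21.04 CPM in KO against 31.0 and 31.6 CPM in WT. Its groups did not overlap, with a log2 fold change of -0.51 (SE 0.11, edgeR adjusted p = 0.0634). Becn1, the beclin subunit, was at 67.1 and 69.2 CPM in KO and at 80.7 and 80.5 CPM in WT (-0.24). Pik3r4, the regulatory kinase VPS15, was at 20.4 and 23.8 CPM in KO and 20.1 and 23.4 CPM in WT, nearly the same spread in both groups (0.02). Atg14, which directs the complex to autophagosome formation, and Uvrag, which takes its place in the endosomal complex, both overlapped (-0.16 and 0.14). Atg14 was at 9.31 and 12.003 CPM in KO and 12.5 and 11.3 CPM in WT, and Uvrag was at 19.4 and 21.1 CPM in KO and 20.6 and 16.2 CPM in WT. Ambra1, a beclin-binding scaffold, was at 44.8 and 43.2 CPM in KO and 41.0 and 42.3 CPM in WT (0.08).

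Among the 8 genes that bind PI3P or move lipid into the growing membrane, 4 were lower at an unadjusted edgeR p under 0.05, beside 15.7% of all genes. None was called, beside 3.61% of all genes called in either direction. Wdr45, the PI3P-binding protein WIPI4, was at 9.13 and 10.3 CPM in KO against 13.9 and 15.9 CPM in WT (-0.61, edgeR adjusted p = 0.0817). The lipid transfer genes Atg2a and Atg2b and the effector Wipi2 had log2 fold changes of -0.56, -0.50 and -0.48. All of these had both KO libraries below both WT libraries, as did 32.2% of all genes. However, the WT libraries of Atg2a, Atg2b and Wipi2 lay far apart. Atg2a was at 33.6 and 31.02 CPM in KO against 40.1 and 55.0 CPM in WT. Atg2b was at 27.7 and 24.5 CPM in KO against 41.8 and 32.2 CPM in WT, and Wipi2 was at 35.7 and 37.2 CPM in KO against 56.8 and 45.2 CPM in WT.

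The scramblase gene Atg9a was at 39.8 and 38.5 CPM in KO against 44.3 and 46.5 CPM in WT (-0.21), and Vmp1, a scramblase of the endoplasmic reticulum, overlapped, at 69.7 and 79.8 CPM in KO and 106.7 and 78.2 CPM in WT (-0.31). Members of this group also stood on the higher side. Wipi1 was at 10.8 and 12.04 CPM in KO against 8.77 and 9.76 CPM in WT (0.30, edgeR adjusted p = 0.254). Atg9b was close to the detection limit, at 0.975 and 0.740 CPM in KO against 0.385 and 0.463 CPM in WT (1.0, SE 0.47, edgeR adjusted p = 0.224).

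The ATG12 and ATG8 conjugation factors held the gene with the lowest log2 fold change of all members. Atg16l2 (ENSMUSG00000047767, chromosome 7, 101263034 to 101302251, GRCm38) encodes a paralogue of ATG16L1 that is not required for canonical autophagy. It had 91 and 107 counts (4.03 and 4.17 CPM) in KO, against 233 and 275 counts (11.2 and 11.6 CPM) in WT. The 2 libraries of each group lay close together and the groups far apart. Atg16l2 fell to 36.02% of WT, a log2 fold change of -1.47 (SE 0.16, edgeR adjusted p = 0.0434). Atg16l1, the canonical partner of ATG5 and ATG12, was at 22.1 and 21.9 CPM in KO and 23.6 and 24.5 CPM in WT (-0.13, edgeR adjusted p = 0.463). Per length, Atg16l2 made up 17.2% and 17.8% of the summed level of the pair in KO, against 35.1% and 35.0% in WT. Its share was 11.9 percentage points lower in KO with the longest transcript as the length and 17.6 points lower with all exons.

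Among the other conjugation factors, Atg3, the E2-like enzyme that attaches ATG8 proteins to lipid, was at 17.96 and 17.2 CPM in KO against 27.8 and 26.3 CPM in WT. The groups did not overlap (-0.62, SE 0.11, edgeR adjusted p = 0.0537). Atg5 and Atg12, whose products form the conjugate that acts in that step, had log2 fold changes of -0.47 and -0.33, with no overlap and no call. Atg5 was at 17.7 and 17.8 CPM in KO against 26.1 and 22.9 CPM in WT, and Atg12 was at 27.8 and 29.3 CPM in KO against 36.7 and 35.3 CPM in WT. Atg10, the E2-like enzyme for ATG12, was scarce, at 2.79 and 2.49 CPM in KO and 2.84 and 3.24 CPM in WT. Atg7, the E1-like enzyme of both conjugation systems, was the 1 member of the 7 on the higher side, with overlapping values of 17.7 and 15.1 CPM in KO and 14.6 and 16.5 CPM in WT.

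In all 5 genes of the ATG8 family the KO values lay below both WT values, beside 32.2% of all genes. Of the 5, 3 were called lower, beside 1.90% of all genes. All 5 were lower at an unadjusted edgeR p under 0.05, beside 15.7%. Map1lc3a (ENSMUSG00000027602, chromosome 2, 155276297 to 155278073, GRCm38), which encodes LC3A, had 17.5 and 21.7 CPM in KO, against 46.0 and 46.8 CPM in WT. Both KO libraries lay far below both WT libraries, which were close together. Map1lc3a fell to 42.3% of WT (log2 fold change -1.24, SE 0.14, edgeR adjusted p = 0.0434). Gabarap (ENSMUSG00000018567, chromosome 11, 69991143 to 69994951), the founding member of the GABARAP branch, had 142 and 135 CPM in KO, against 247 and 235 CPM in WT. It fell to 57.5% of WT (-0.80, SE 0.12, edgeR adjusted p = 0.0465). Gabarapl2 (ENSMUSG00000031950, chromosome 8, 111940703 to 111953612), which encodes GATE-16, had 43.9 and 39.8 CPM in KO, against 70.0 and 70.4 CPM in WT. It fell to 59.6% of WT (-0.75, SE 0.10, edgeR adjusted p = 0.0444).

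The remaining ATG8 genes were not called. Gabarapl1 was at 15.7 and 16.3 CPM in KO against 30.6 and 25.2 CPM in WT (-0.80, SE 0.14, edgeR adjusted p = 0.0536). Map1lc3b, which encodes the LC3B protein of most autophagy assays, was at 101.5 and 91.3 CPM in KO against 127 and 148 CPM in WT (-0.52, SE 0.14, edgeR adjusted p = 0.0881). Relative to their mean, the libraries of a group lay furthest apart in KO for Map1lc3a and in WT for Gabarapl1 and Map1lc3b. Summed per length, the family was at 132 and 129 CPM per kb in KO, against 235 and 230 CPM per kb in WT, or 56.2% of WT. Per 1000 CPM of epithelial markers, that sum was 18.4 and 19.9 in KO and 30.5 and 23.9 in WT, with no overlap. Gabarap took 57.6% of the family level per length in KO and 56.2% in WT. Map1lc3a took 11.2% and 14.3% in KO, against 16.6% and 17.3% in WT, and its mean share was also lower in KO with the longest transcript as the length and with no length correction.

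**Figure D2:**
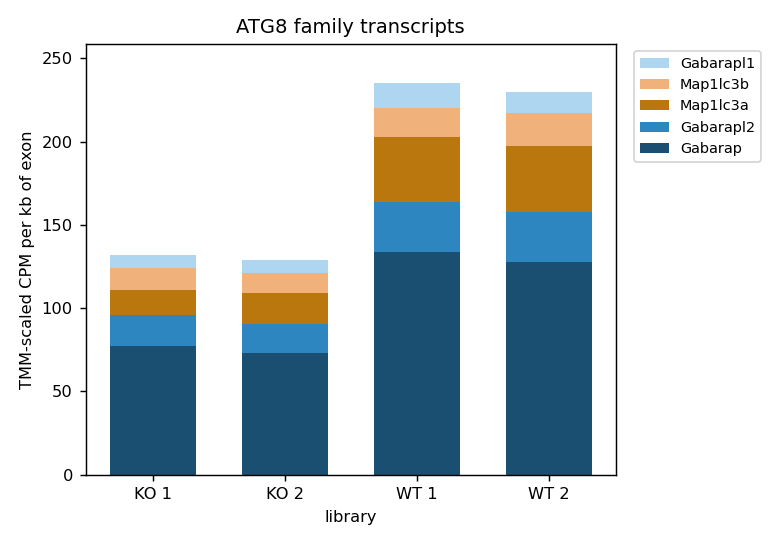
Summed level of the 5 ATG8 family genes in each library, as TMM-scaled CPM per kb of annotated exon, stacked by gene. The KO bars reach 132 and 129 CPM per kb and the WT bars 235 and 230 CPM per kb, with Gabarap the largest part of each bar.

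The ATG4 proteases process ATG8 proteins and release them from lipid. Of the 4 genes, 1 (25%) was lower at an unadjusted edgeR p under 0.05, beside 15.7% of all genes. None was called, beside 3.61% of all genes called in either direction. Atg4d was at 40.9 and 39.4 CPM in KO against 61.6 and 57.3 CPM in WT, with no overlap (-0.57, SE 0.10, edgeR adjusted p = 0.0526). Atg4a was at 14.2 and 13.99 CPM in KO against 16.7 and 15.7 CPM in WT (-0.20). Atg4b was at 26.6 and 27.2 CPM in KO against 29.5 and 27.9 CPM in WT (-0.09), and Atg4c overlapped, at 13.3 and 11.2 CPM in KO and 11.4 and 12.9 CPM in WT (0.01). The summed level per length of the 4 proteases was 83.1% of WT. Atg4d made up 31.2% of the ATG4 level per length in KO and 38.3% in WT. Atg4a shares 63.6% of the 50-base words of its transcript with Atg4a-ps, so how reads were split between that pair is uncertain.

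**Figure D3:**
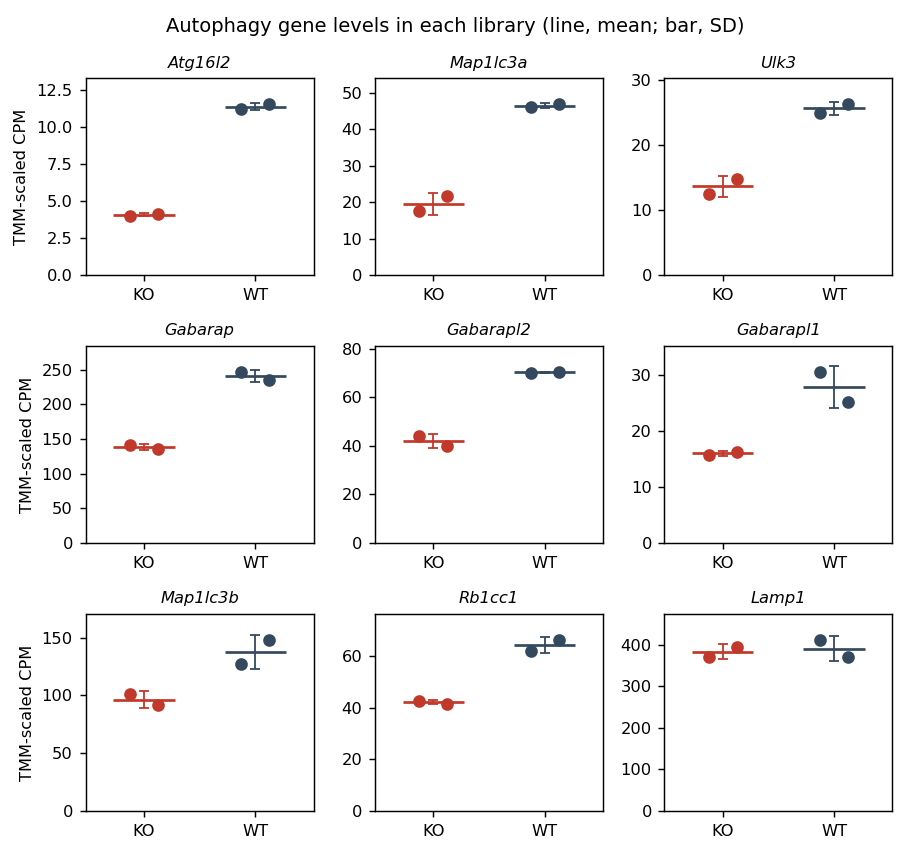
TMM-scaled CPM of 9 autophagy genes in each library (points), with the mean as a line and the SD as a bar, n = 2 per group and axes starting at 0. Atg16l2, Map1lc3a, Ulk3, Gabarap and Gabarapl2 were called lower in KO, Gabarapl1, Map1lc3b and Rb1cc1 were lower without a call, and Lamp1 overlapped.

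Of the lysosomal membrane genes Lamp1 and Lamp2 and the transcription factor genes Tfeb and Tfe3, none was called, beside 3.61% of all genes in either direction. The median log2 fold change of these 4 was -0.08. Lamp1, a major glycoprotein of the lysosomal membrane, had the highest level per length of all members, at 143 ± 6.6 CPM per kb in KO and 146 ± 11.2 CPM per kb in WT (SD, n = 2). Its values overlapped, at 371 and 396 CPM in KO and 412 and 370 CPM in WT (log2 fold change -0.03, SE 0.14). Lamp2, whose splice forms include the receptor of chaperone-mediated autophagy, was at 134 and 140 CPM in KO against 175 and 179 CPM in WT, with no overlap and no call (-0.37, edgeR adjusted p = 0.112). Tfeb and Tfe3 encode transcription factors that drive lysosomal and autophagy genes. Tfeb was at 14.8 and 15.8 CPM in KO and 15.8 and 17.6 CPM in WT (-0.13), and Tfe3 was at 23.2 and 23.6 CPM in KO and 18.1 and 23.0 CPM in WT (0.19). Neither was called, and RNA levels do not report the nuclear entry by which these factors are controlled.

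TFEB and TFE3 bind E-boxes with the core CACGTG. Promoters in RefSeq (GRCm38.p6, 250 bases before to 50 after a start) were found for 34 of the 40 tested members, and the search covered both strands, which read the same for this palindrome. CACGTG stood in the promoters of 5 of the 34 (14.7%), beside 11.2% of 10885 genes tested, namely Atg14, Atg3, Atg5, Atg7 and Lamp1. The Atg7 window, at chr6:114670846-114671145, belongs to a start within the gene, which begins at 114643097 in GENCODE. Of the 5 called genes, Atg16l2, Gabarap, Gabarapl2 and Ulk3 had an entry and held no CACGTG in this window. Lamp1 with 4 E-boxes and Atg3 with 2 are printed as the members with more than 1, on the plus strand at chr8:13158911-13159210 and chr16:45158579-45158878, 5′ to 3′, with CACGTG in capitals.
Lamp1: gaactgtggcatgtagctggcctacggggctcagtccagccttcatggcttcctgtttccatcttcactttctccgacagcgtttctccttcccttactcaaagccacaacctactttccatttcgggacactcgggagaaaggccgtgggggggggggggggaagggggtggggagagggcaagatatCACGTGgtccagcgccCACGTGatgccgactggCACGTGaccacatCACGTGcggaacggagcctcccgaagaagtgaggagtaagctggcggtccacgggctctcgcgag
Atg3: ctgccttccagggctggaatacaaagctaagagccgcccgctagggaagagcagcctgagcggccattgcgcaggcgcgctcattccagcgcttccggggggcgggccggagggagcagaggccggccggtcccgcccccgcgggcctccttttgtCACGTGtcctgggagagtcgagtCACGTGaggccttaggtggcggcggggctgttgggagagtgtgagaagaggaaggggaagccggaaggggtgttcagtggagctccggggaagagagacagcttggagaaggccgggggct
The first E-box began 61 bases before the start in Lamp1 and 94 bases before it in Atg3. Lamp1 overlapped between the groups, and Atg3 was at 65.1% of WT without a call.

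Genes around the core were read from lists chosen with earlier results of these data known. Of 17 cargo receptors, 4 were called lower (23.5%, beside 1.90% of all genes). At an unadjusted edgeR p under 0.05, 11 were lower (64.7%, beside 15.7%) and none was higher (beside 14.8%). Their median log2 fold change was -0.50. Ncoa4, the receptor for ferritin, fell to 169 and 233 CPM in KO, against 529 and 550 CPM in WT (-1.43, edgeR adjusted p = 0.0449). The mitophagy receptor Bnip3 was at 58.4 and 49.0 CPM in KO against 128 and 191 CPM in WT (-1.57, edgeR adjusted p = 0.0469). Its relative Bnip3l (-0.69) and the ubiquitin receptor Nbr1 (-0.73) also fell. Sqstm1, which encodes the receptor p62, was at 186 and 179 CPM in KO and 196 and 300 CPM in WT, with a wide gap between the WT libraries (-0.44, edgeR adjusted p = 0.261).

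Subunits of the V-ATPase, the proton pump that acidifies the lysosome, followed the same direction (median -0.49). Of 16, 3 were called lower, beside 1.90% of all genes, and 15 were below 0, beside 51.0%. The 3 called subunits were Atp6v0e (-0.76), Atp6v1e1 (-0.87) and Atp6v0b (-0.67). Of 13 lysosomal membrane proteins, all were below 0, beside 51.0% of all genes, and 1 (7.69%) was called lower, beside 1.90%. It was the cystine exporter Ctns, at 13.7 and 15.1 CPM in KO against 31.6 and 34.4 CPM in WT (-1.19, edgeR adjusted p = 0.0434). Lysosomal hydrolases differed (median 0.14). Of 30, 2 were called higher (6.67%, beside 1.72% of all genes) and 1 lower (3.33%, beside 1.90%), and 20 were above 0 (beside 49.0%). Gusb, the beta-glucuronidase, rose to 89.5 and 90.6 CPM in KO, against 45.6 and 39.2 CPM in WT (1.09), and the cathepsin gene Ctsh rose (1.66). The acid lipase gene Lipa fell (-0.86). Hydrolases are also abundant in macrophages, whose markers were higher in KO, and the part of those cells was not tested.

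The kinase complex mTORC1 restrains autophagy in fed cells. Among 29 tested genes of mTORC1 and of its activators and inhibitors, 1 was called lower (3.45%, beside 1.90% of all genes). This was Flcn, a regulator of the Rag GTPases, at 27.9 and 29.7 CPM in KO against 50.8 and 46.1 CPM in WT (-0.75, edgeR adjusted p = 0.0461). Another 9 were lower at an unadjusted p under 0.05, which made 34.5% with Flcn, beside 15.7% of all genes. None was higher, beside 14.8%. No gene was called among 7 of AMPK, 14 of autophagosome fusion or 13 other autophagosome factors, beside 3.61% of all genes in either direction. At an unadjusted edgeR p under 0.05, these lists held 1, 1 and 0 higher genes in that order, beside 14.8% of all genes. Lower genes numbered 1, 3 and 5 in the same lists, beside 15.7%. The lowest p in each were those of Stk11 (0.71), Prkag1 (-0.42) and Prkab1 (-0.24) for AMPK and its upstream kinase, and Vps18 (0.51), Snap29 (-0.50) and Rab7 (-0.43) for fusion. For the other factors they were those of Rubcn (-0.63), Sh3glb1 (-0.43) and Tmem41b (-0.44).

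**Figure D4:**
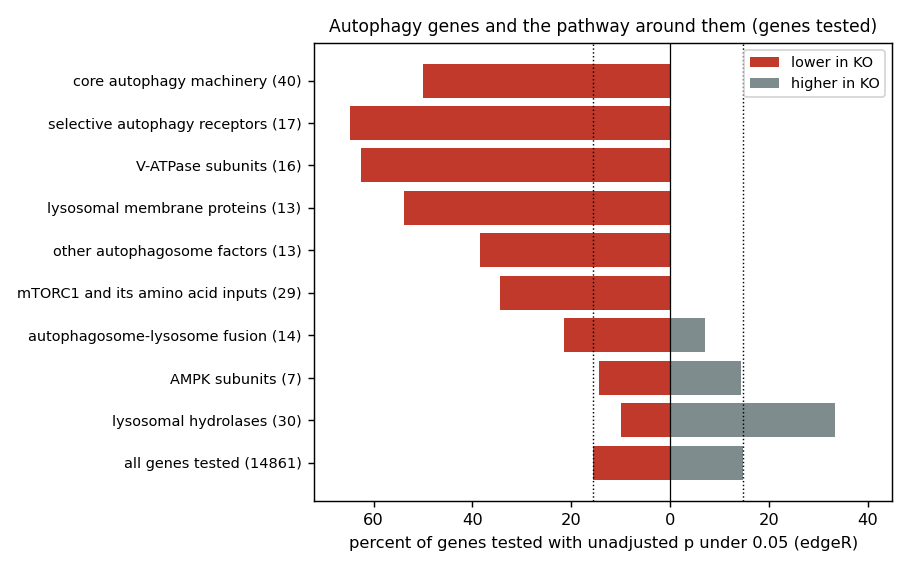
Share of the genes tested in each list with an unadjusted edgeR p under 0.05, lower in KO to the left and higher in KO to the right, with the number tested in brackets. Dotted lines mark the shares over all genes (15.7% lower and 14.8% higher), and the core autophagy machinery stands at 50% lower and 0 higher.

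Per length, Lamp1 and Gabarap had the highest levels in both genotypes, and the lowest tested members were Atg10 (1.54 ± 0.12 CPM per kb in KO and 1.77 ± 0.16 in WT), Atg16l2 (0.484 ± 0.011 and 1.35 ± 0.029) and Atg9b (0.217 ± 0.042 and 0.107 ± 0.014), as mean ± SD of 2 libraries. Within the sexes, with 1 library of each genotype, 32 members were lower in the male KO library, beside 51.8% of all genes. In the female KO library 30 were lower, beside 49.1%. Of the members, 29 were lower in both, a share not counted over all genes. The members' median differences in log2 CPM were -0.28 in the male and -0.27 in the female libraries, beside -0.03 and 0.01 over all genes.

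Some members share exons or sequence with other genes, and whether reads were counted by strand is not given in the sources used here. Exons of Becn1 overlap Cntd1 on the other strand over 43.9% of their length, those of Atg4d overlap Kri1 over 19.3%, and those of Gabarapl1 overlap 1700101I11Rik over 28.3%. Reads of Atg9a and Gm29253, which overlap on the same strand, and of Wdr45 and Gm45208 may also be divided, although Gm29253 averaged 67 counts a library and Gm45208 0.5. Cntd1 averaged 11.75 counts and Kri1 400.75. Of the called genes, Gabarapl2 shares 17.0% of its 50-base words with other transcripts such as Gm3724, Ulk3 shares 3.46%, and Gabarap and Atg16l2 share 0.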

How the data were processed

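Counts per gene were deposited by the authors as whole numbers and, going by their unequal library totals, without normalisation. Per the submitters' processing notes, the tools were RSEM 1.2.29, STAR 2.4.2a and FastQC 0.11.2, and the build was mm10, with no roles stated. The annotation release, strandedness and any rounding are not stated there, so the split of reads between overlapping or near-identical genes is uncertain. All columns were matched to samples by title, and 0 columns had no sample. Groups come from the genotype label. Replicate numbers follow accession order and pair no libraries. Because nothing states how the cultures or animals were prepared, the p-values reflect the spread among these 4 libraries alone.

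Genes were kept with filterByExpr, scaled by TMM and tested with edgeR 4.0.16 (R 4.3.3), quasi-likelihood F-test, legacy and robust options on, two-sided, Benjamini-Hochberg adjustment over 14861 genes, threshold 0.05, with 2 residual degrees of freedom. CPM are given per library or as mean ± SD. CPM per kb used the union of annotated exons. Positions, transcripts and gene lengths are from GENCODE M21 (GRCm38, 1-based, 99.6% of identifiers matched), and promoters are from RefSeq. Alternatives were other scaling factors, DESeq2 1.42.0, limma-voom (limma 3.58.1), other filters, omission of mitochondrial genes, each library left out and sex as a covariate. The members and lists were chosen with earlier results of these data known. Every member is named. Of each list the called genes or, with none called, the 3 with the lowest p at a mean CPM of 5 or more are named, plus Mettl14 and Sqstm1. Cell type markers that are named were picked for naming after their values were seen.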

Additional observations from a re-analysis of the deposited data

Results flagged for a closer look

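In 4 members the difference between KO and WT had opposite signs in the male and the female libraries, with 1 library of each genotype and sex, so the difference between the sexes was not tested. For Pik3r4 the difference in log2 CPM was 0.24 in the male and -0.19 in the female libraries, a gap of 0.43. For Ulk2 it was -0.04 and 0.13 (gap -0.17), for Atg4c -0.02 and 0.05 (gap -0.068), and for Lamp1 -0.06 and 0.003 (gap -0.062). None of these genes was called in the comparison of the genotypes.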

How the results depend on the processing

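The 5 called genes kept a negative log2 fold change in all 14 alternative fits, as did 20 other members. The count of members called lower, 5 in the reported fit, was 2 with library size scaling and 9 with DESeq2, with no filter on low counts or with sex as a covariate, and ran from 0 to 11 when each library was left out. The added genes under DESeq2, without a filter and with sex as a covariate were Atg3, Atg4d, Gabarapl1 and Rb1cc1 each time. No member was called higher in any alternative. Over all genes, the higher and lower counts were 604 and 186 with library size scaling, 952 and 975 with DESeq2, 862 and 770 without a filter, 696 and 713 with sex as a covariate, and 416 higher with upper quartile factors, and both ran from 0 upward, to 1271 and 1019, with a library left out. The cause was not tested. With a library left out, the lone sample of its group is assumed to vary like the other group.

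The members' median of -0.32 was -0.15 with library size scaling, -0.25 with upper quartile factors, -0.29 without mitochondrial genes and -0.34 to -0.30 with a library left out. It reversed to 0.019 relative to the summed epithelial markers, a scaling that moved the median of all genes to 0.33. Library size scaling moved the median of all genes to 0.15. Signs that reversed, all without a call, were those of Tfeb (0.040), Atg4b (0.077), Atg16l1 (0.041), Atg14 (0.017) and Lamp1 (0.14) with library size scaling, of Lamp1 with upper quartile factors (0.041), without KO replicate 1 (0.005) and without WT replicate 1 (0.041), of Atg4c (-0.13 and -0.083) and Atg7 (-0.048 and -0.015) without those 2 libraries, and of Pik3r4 without KO replicate 2 (-0.072) and without WT replicate 1 (-0.094). With a library left out, the highest values were 0.21 for Atg7 and 0.17 for Pik3r4, and the lowest for Lamp1 was -0.073. No paired analysis was possible because the labels give no shared replicate numbers, other than by sex as read from the data, where the fit with sex as a covariate compares KO with WT within each sex with 1 residual degree of freedom.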
